A study of Homo sapiens with 14 samples.

Results

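NF-kB is a family of dimeric transcription factors built from 5 subunits, the products of NFKB1, NFKB2, REL, RELA and RELB. In resting cells the dimers are held in the cytoplasm by inhibitors such as those encoded by NFKBIA and NFKBIE. TNF binding to its receptor leads to the destruction of these inhibitors and frees the dimers to enter the nucleus. NF-kB in turn drives transcription of several of its own inhibitors and subunits, a feedback loop that limits the response in epithelial cells of the gut as elsewhere. The values below follow the RNA of 10 such genes, chosen by name from the count table: the 5 subunits, the inhibitors TNFAIP3, NFKBIA, NFKBIE and TNIP1, and the NF-kB cofactor BCL3. They are 10 of 36555 gene IDs, and all 10 were among the 22179 that passed the filter on low counts.

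The cells were HT-29, an established human colorectal carcinoma line labelled as wild type. They received human recombinant TNF, labelled at 100 ug/ml, ferrostatin-1 at 20 uM, liproxstatin-1 at 20 uM, or a combination. Both compounds are inhibitors of ferroptosis, a form of cell death driven by lipid peroxidation. The groups were TNF (2 libraries), TNF with ferrostatin-1 (3), TNF with liproxstatin-1 (2), ferrostatin-1 alone (2), liproxstatin-1 alone (2) and control in medium with 0.1% DMSO (3). The labels give DMSO for control only, so whether the treated groups, TNF alone included, had the same vehicle is not known here. Treatment lasted 72 h, and the study asked how the compounds differ during TNF-induced apoptosis. The replicates are described as technical, so the p-values below measure only the spread between such libraries. The RNA is from bulk cultures and counts are scaled per library, so neither cell number nor total RNA per cell can be read from the values. A change in the mix of cells and a change within cells cannot be told apart.

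The libraries held 59913850 to 75838597 counts. The 2 TNF libraries stood apart from each other: log2 CPM (counts scaled to a common library size) correlated with r = 0.966 between them, across genes, against 0.973 to 0.978 for pairs within the other groups. They are called TNF library 1 and library 3, after their columns, and the main results that rest on them are also given with either left out. The epithelial marker list ranged from 9231 to 13827 CPM in sum per library, most of it from the keratin genes KRT8 and KRT18. Within that list the adhesion gene CDH1 was at 306 to 382 CPM in the 7 libraries with TNF, against 498 to 670.5 CPM in the 7 without. VIL1, of the intestinal brush border, was at 96.1 to 141 CPM with TNF, against 159 to 189 CPM without. The rest of the list did not fall in TNF libraries against control libraries. EPCAM was at 524 and 520 CPM in TNF libraries, against 510, 515 and 482 CPM in control libraries. Where a compound was given, EPCAM was at 427 to 469 CPM with TNF, against 485 to 543 CPM without. KRT8, KRT18, KRT19, KRT20, CDX2 and CEACAM5 overlapped between TNF and control libraries. Within each compound, KRT20 and CEACAM5 were lower with TNF, without overlap. KRT20 was at 329 to 382 CPM against 516 and 524 CPM within ferrostatin-1. Within liproxstatin-1 it was at 330 and 338 CPM against 350 and 364 CPM. KRT19 was lower with TNF within liproxstatin-1 and KRT18 higher within ferrostatin-1. The other comparisons of KRT8, KRT18, KRT19 and CDX2 within a compound overlapped. CDX2 and CEACAM5 were low, at most 12.2 and 9.58 CPM. The leukocyte gene PTPRC was at 0 to 0.0551 CPM, whereas the myeloid markers CD14 and CD68 were at 8.29 to 12.6 and 7.10 to 21.1 CPM. The leukocyte sum of 20.7 to 31.9 CPM in TNF libraries overlapped that of 17.3 to 24.9 CPM in control libraries. Summed endothelial markers were at 0.727 to 15.2 CPM over all libraries. Summed fibroblast markers (4 genes) were at 23.9 and 42.8 CPM in the TNF libraries, against 3.47 to 12.4 CPM in control libraries. They were at 2.25 to 3.94 CPM in TNF with ferrostatin-1 and 4.33 to 12.7 CPM in TNF with liproxstatin-1. These sums came mostly from COL1A1, COL1A2 and COL3A1. PDGFRB, the other gene of the list, was at 0 to 0.449 CPM over all libraries and overlapped between TNF and control. The part of these markers in the results was not tested.

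Many genes of this loop carry the 10-base NF-kB consensus near their start site. The stretches below hold it, in capitals, and are shown because NF-kB is known to recognise this base pattern. A match is a description of the letters, not a site shown to be in use. They are from RefSeq, build GRCh38.p14, in the direction of each gene, with 10 bases shown before the first match. Where matches overlap or adjoin, all their bases are in capitals.
TNFAIP3, chr6:137867182-137867223, plus strand: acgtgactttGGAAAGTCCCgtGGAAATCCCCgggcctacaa
NFKBIA, chr14:35404811-35404840, minus strand: tgactggcttGGAAATTCCCcgagcctgac
NFKB1, chr4:102501300-102501329, plus strand: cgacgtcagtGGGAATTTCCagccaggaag
NFKB2, chr10:102394461-102394490, plus strand: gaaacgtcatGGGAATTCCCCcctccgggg
NFKB2, chr10:102395674-102395703, plus strand: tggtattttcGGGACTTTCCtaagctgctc
TNIP1, chr5:151081057-151081086, minus strand: ccagtctccgGGGACTTTCCcaggggtggg
REL, chr2:60881517-60881546, plus strand: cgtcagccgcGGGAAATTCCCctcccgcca
BCL3, chr19:44748700-44748729, plus strand: ccggctgcagGGGAAGTCCCggcgcccggc

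The match lay 67 bases before the start site in TNFAIP3, 81 in NFKBIA, 49 in NFKB1, 107 and 21 in the 2 NFKB2 promoters shown, 42 in TNIP1 and 47 in REL. In BCL3 it began at position 3 after the start site. Each of these NFKB2 promoters held a further match that is not shown, 78 bases before the start site in the first and 176 in the second. The search covered 250 bases before to 50 after each start site, on both strands. It found the consensus in 7 of the 8 genes with a promoter entry, and in 8 of their 13 promoters. Of all 35116 promoters of the same length, 11.27% held it, and of all 27305 genes with an entry 13.25% did so in any promoter. RELA was the 1 gene with an entry and no match, which says only that these letters are not in that window. NFKBIE and RELB were not searched. Matches were present in genes whose RNA rose with TNF (TNFAIP3, NFKBIA, NFKB1, NFKB2, TNIP1) and in genes not called (REL, BCL3).

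With TNF, 7 of the 10 genes rose against control and none fell (edgeR's quasi-likelihood test, adjusted p below 0.05). They were the inhibitors TNFAIP3, NFKBIA, NFKBIE and TNIP1 and the subunits NFKB1, NFKB2 and RELB. Over all genes tested, 8.24% were called higher and 6.44% lower. The median log2 fold change was 2.10 over the 10 genes and -0.02 over all genes tested. REL, RELA and BCL3 were not called. The CPM of the 2 groups did not overlap in 8 of the 10 genes, against 40.6% of all genes tested.

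**Figure D1:**
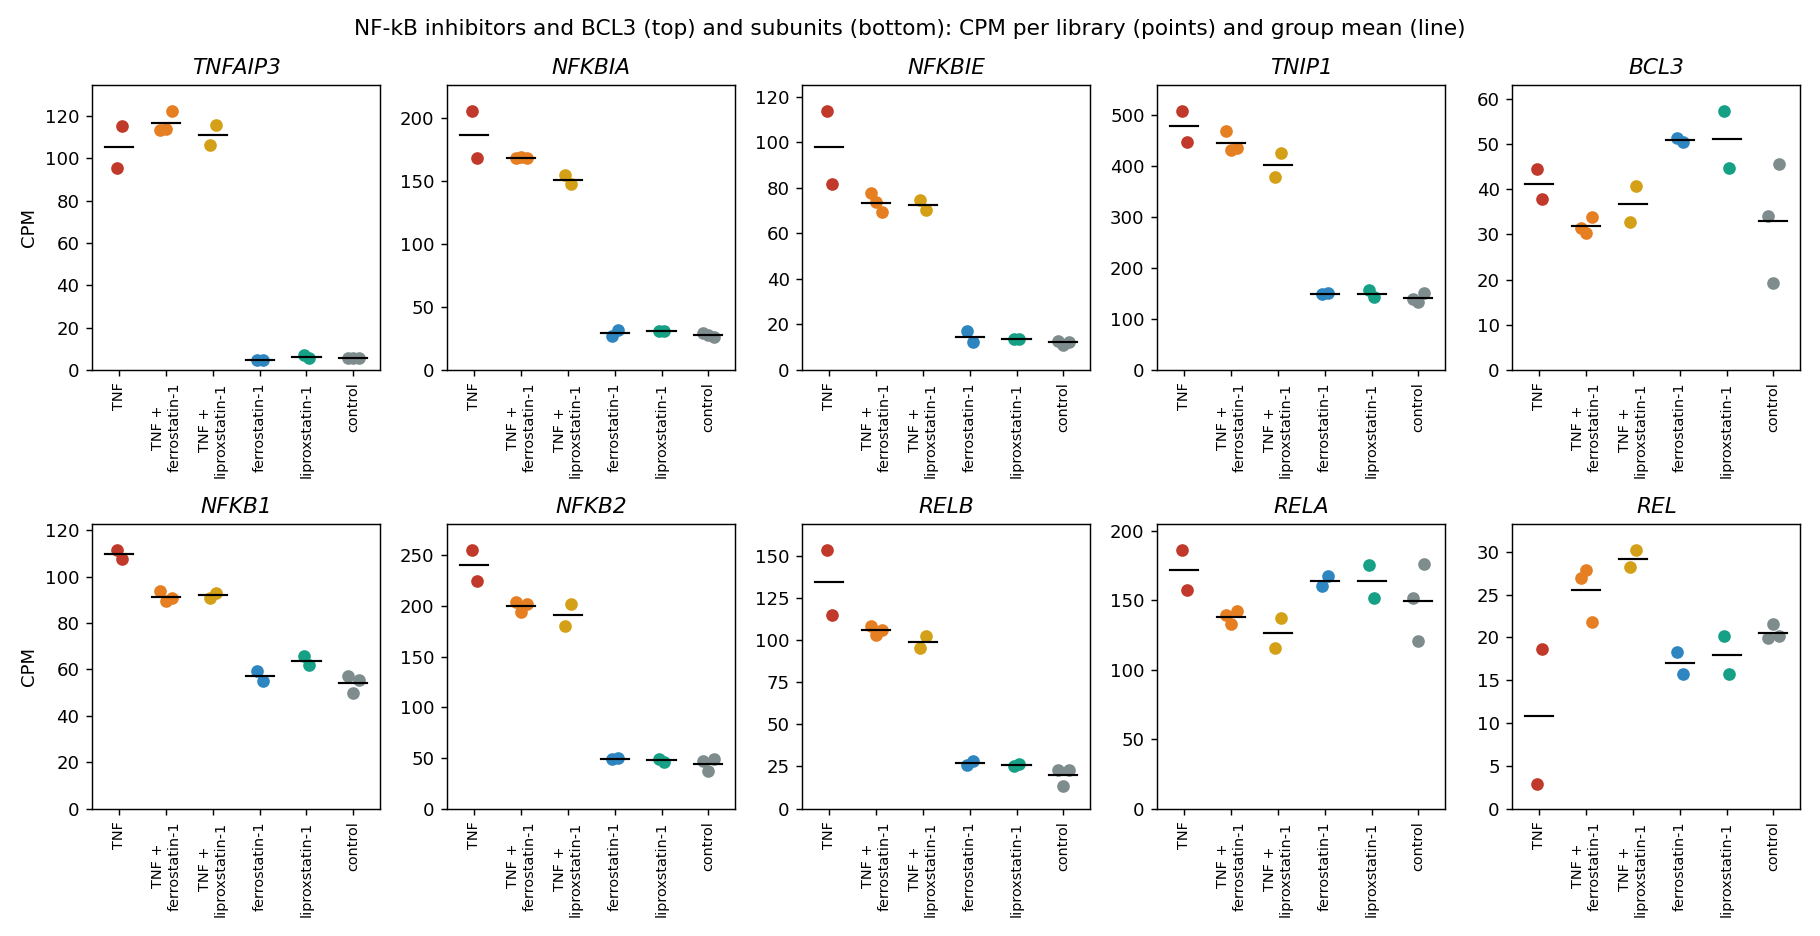
Scaled counts (CPM) of each of the 10 genes in the 14 libraries, inhibitors and BCL3 in the top row and subunits in the bottom row, on linear axes that start at 0. Each point is 1 library and each bar a group mean. Every TNF-treated library lies above every library without TNF for TNFAIP3, NFKBIA, NFKBIE, TNIP1, NFKB1, NFKB2 and RELB, and REL is at 2.86 CPM in TNF library 1 alone.

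Among the inhibitors, TNFAIP3 moved most on the log2 scale. It encodes a ubiquitin-editing enzyme that shuts off signalling upstream of the kinase complex, and lies at chr6:137867214-137883312, plus strand, in the deposited table. It was at 95.3 and 115 CPM in TNF libraries, against 5.82, 5.75 and 5.81 CPM in control libraries. The groups were far apart and the controls nearly equal. The log2 fold change was 4.18 ± 0.12 (SE), an 18.2-fold rise (edgeR adjusted p = 8.23e-09). The table also holds WAKMAR2, an antisense gene that overlaps it, at 0 to 104 counts per library, against 327 to 8738 for TNFAIP3.

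NFKBIA encodes the inhibitor that is destroyed first after TNF and that NF-kB quickly replaces (chr14:35401513-35404749, minus strand). Its RNA was at 206 and 168 CPM in TNF libraries, against 29.7, 27.7 and 26.3 CPM in control libraries. It rose by 2.75 ± 0.11 (SE) on the log2 scale, or 6.71-fold (edgeR adjusted p = 3.11e-08). NFKBIE, a related inhibitor (chr6:44258166-44265788, minus strand), was at 114 and 81.6 CPM in TNF libraries, against 12.7, 11.1 and 12.3 CPM in control libraries. It rose by 3.02 ± 0.16 (SE) on the log2 scale, or 8.10-fold (edgeR adjusted p = 3.39e-07). For both genes TNF library 1 was the higher of the pair.

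TNIP1 encodes a ubiquitin-binding partner of the TNFAIP3 product (chr5:151029945-151093577, minus strand). It was at 507 and 447 CPM in TNF libraries, against 139.8, 133 and 151 CPM in control libraries, with no overlap. Its log2 fold change was 1.76 ± 0.09 (SE), or 3.38-fold (edgeR adjusted p = 2.92e-07). BCL3, an atypical member of the inhibitor family that acts in the nucleus with NF-kB dimers (chr19:44747705-44759486, plus strand), was at 44.5 and 37.9 CPM in TNF libraries, against 34.1, 19.2 and 45.6 CPM in control libraries. The groups overlapped, and the control libraries spread widely. The log2 fold change was 0.32 with a 95% interval of -0.25 to 0.90 (edgeR adjusted p = 0.456).

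The subunits divided into 3 that rose and a pair that was not called. NFKB2 encodes the precursor of the noncanonical pathway's DNA-binding subunit (chr10:102394110-102402524, plus strand). It was at 256 and 225 CPM in TNF libraries, against 46.7, 36.6 and 48.6 CPM in control libraries. NFKB2 rose by 2.45 ± 0.12 (SE) on the log2 scale, or 5.46-fold (edgeR adjusted p = 1.37e-07). RELB, the usual partner of the NFKB2 product (chr19:45001449-45038198, plus strand), was at 154 and 115 CPM in TNF libraries, against 22.8, 13.5 and 23.0 CPM in control libraries. It rose by 2.76 ± 0.20 (SE) on the log2 scale, or 6.79-fold (edgeR adjusted p = 3.17e-06).

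NFKB1 encodes the precursor of the canonical pathway's DNA-binding subunit (chr4:102501331-102617302, plus strand) and rose less. It was at 112 and 108 CPM in TNF libraries, against 57.0, 49.9 and 55.4 CPM in control libraries. The log2 fold change was 1.02 ± 0.09 (SE), or 2.03-fold (edgeR adjusted p = 1.29e-05). RELA, the main transactivating subunit of the canonical pathway (chr11:65653597-65663090, minus strand), was at 186 and 157 CPM in TNF libraries, against 151, 120.5 and 176 CPM in control libraries. The groups overlapped, and the log2 fold change of 0.20 had a 95% interval of -0.11 to 0.52 (edgeR adjusted p = 0.382). The table holds an overlapping divergent transcript, RELA-DT, at 34 to 160 counts per library, far below the 7372 to 14078 counts of RELA.

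REL, a transactivating subunit best known from lymphoid cells (chr2:60881521-60931612, plus strand), was where the TNF libraries disagreed. It was at 2.86 CPM in TNF library 1 and 18.7 CPM in TNF library 3, against 19.9, 21.6 and 20.1 CPM in control libraries. Both TNF libraries were below all controls, but library 3 by little. The log2 fold change of -0.93 ± 0.51 (SE) was not called (edgeR adjusted p = 0.24). Without TNF library 1 it was -0.14 (edgeR adjusted p = 0.731), and without TNF library 3 it was -2.85 and called (edgeR adjusted p = 3.55e-07). The ratio of library 1 to library 3 was 0.153 for REL, against 0.826 to 1.40 for the other 9 genes. REL has the longest summed exons of the 10 in GENCODE v29, 13170 bases against 2373 to 6257. The long noncoding gene AC010733 overlaps it on the same strand, with 235 counts in TNF library 1 and 140 in library 3. Over all libraries AC010733 was at 51 to 742 counts. The 742 were in a library of ferrostatin-1 alone (column 3), where REL had 1051 counts. REL had 216 counts in TNF library 1 and 1415 in TNF library 3. The part of exon length and of this overlap in the REL values was not tested.

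The 7 genes that rose were called whichever of the 14 libraries was left out. Without TNF library 1, their log2 fold changes against control ran from 0.99 in NFKB1 to 4.32 in TNFAIP3. Without TNF library 3 they ran from 1.04 in NFKB1 to 4.04 in TNFAIP3, where 13.3% of all genes were called higher and 17.9% lower, against 4.85% and 4.46% without TNF library 1.

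**Figure D2:**
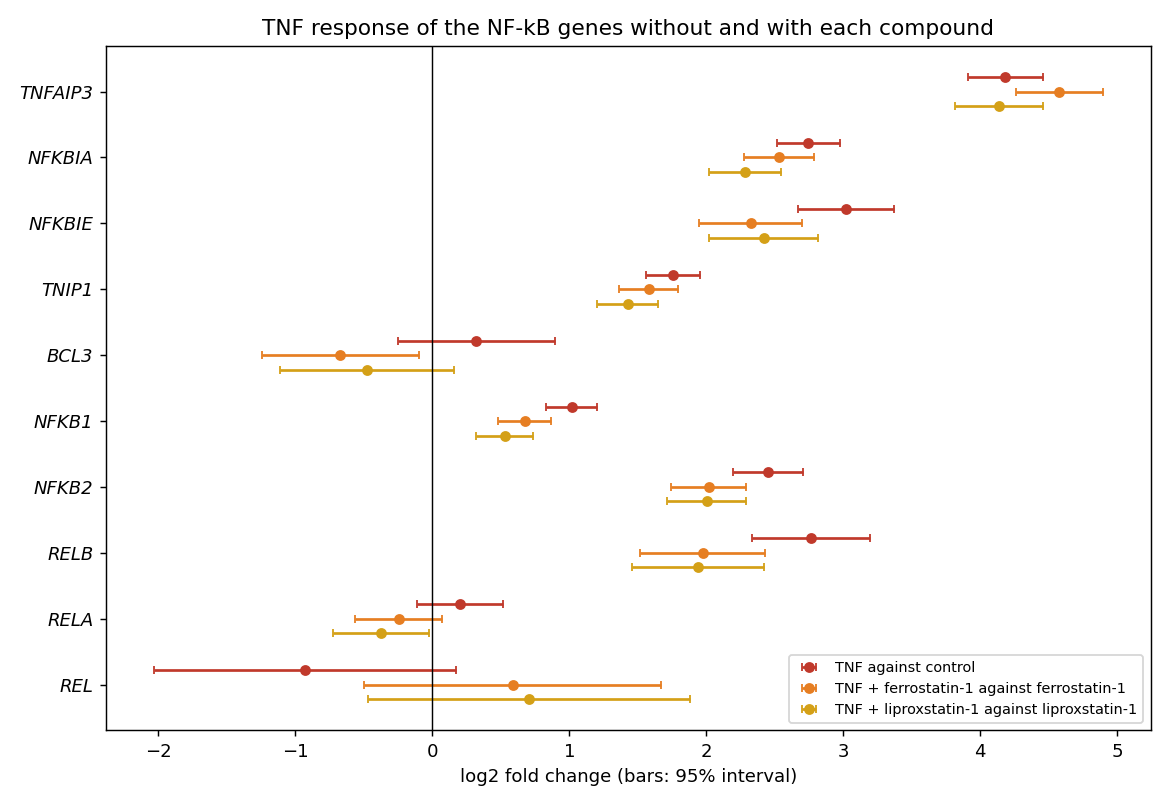
Log2 fold change of TNF-treated over untreated cells for each of the 10 genes, without compound, within ferrostatin-1 and within liproxstatin-1, with bars for 95% intervals of edgeR's fit. The intervals of TNFAIP3, NFKBIA, NFKBIE, TNIP1, NFKB1, NFKB2 and RELB lie above 0 in all 3 comparisons, and those of REL without compound reach from -2.03 to 0.17.

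Levels between genes were compared as CPM per kb of the gene's summed exons in GENCODE v29. This length can differ from that of the transcripts present and from the annotation used in counting, which is not known. The order of genes and the shares below rest on it. With TNF, TNIP1 at 82.4 CPM per kb (mean of 2 libraries) and NFKBIA at 78.8 led the 10 genes, and their ranges overlapped. NFKB2 at 53.6, RELB at 44.2, NFKBIE at 37.8 and RELA at 31.5 CPM per kb followed, each overlapping its next neighbour in that order. TNFAIP3 at 20.9, NFKB1 at 17.5, BCL3 at 12.7 and REL at 0.818 CPM per kb came last, with no overlap between neighbours. In control libraries RELA at 27.3 and TNIP1 at 24.4 CPM per kb (means of 3) led with overlapping ranges, and TNFAIP3 was last at 1.15. NFKBIA at 11.7, BCL3 at 10.2, NFKB2 at 9.81 and NFKB1 at 8.65 CPM per kb overlapped in turn in control, as did RELB at 6.51 and NFKBIE at 4.67. REL followed these at 1.56 CPM per kb, with no overlap on either side.

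The make-up of the 5 subunits' RNA shifted as NFKB2 and RELB rose while RELA was not called. RELA made up 19.3% to 21.3% of the summed subunit level (CPM per kb) in the 7 libraries with TNF, against 47.9% to 52.8% in the 7 without. NFKB2 made up 35.7% to 37.3% with TNF, against 17.3% to 18.5% without. RELB made up 27.8% to 31.7% with TNF, against 10.04% to 15.2% without. NFKB1 made up 11.2% to 13.3% with TNF, against 14.4% to 18.0% without, a smaller share although its RNA was called higher. None of these ranges overlapped between libraries with and without TNF. The shares follow from the levels given above and are no further test. The summed subunit level was 135 and 160 CPM per kb in TNF libraries, against 44.3 to 61.0 in control libraries.

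**Figure D3:**
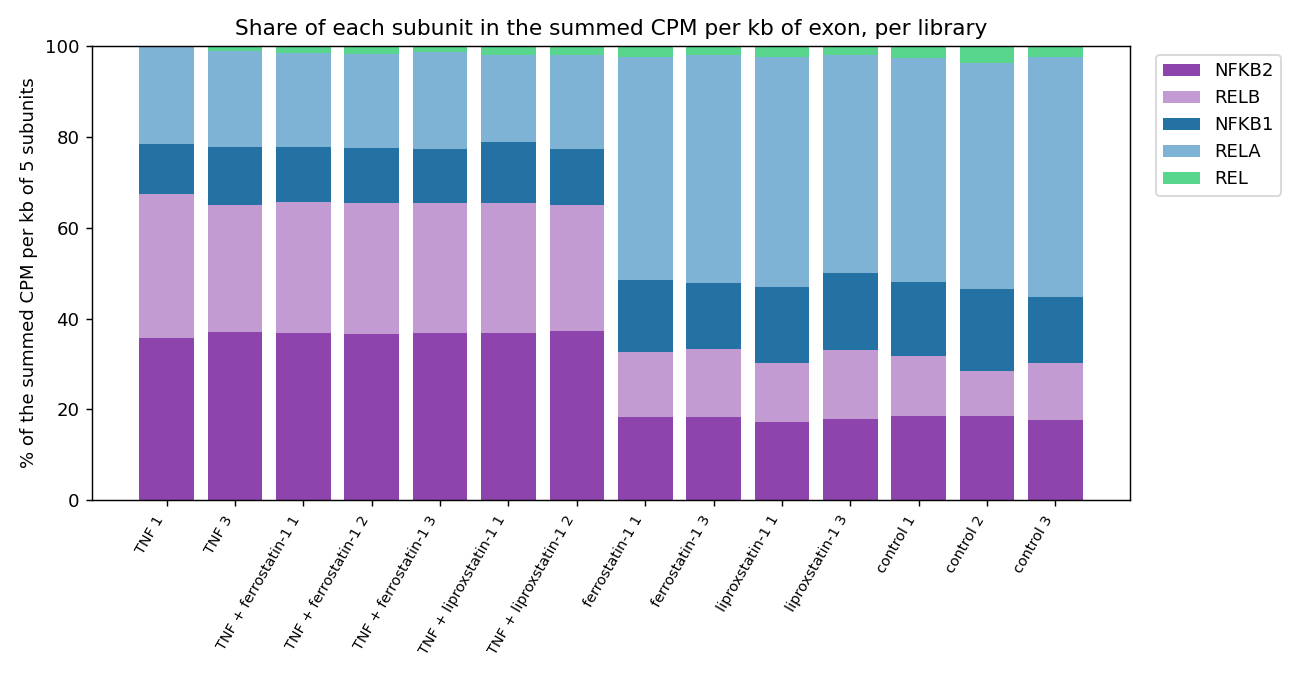
Share, in percent, of each of the 5 NF-kB subunits in their summed level (CPM per kb of exon), 1 stacked bar per library, with the libraries given TNF left of those without it. RELA takes 19.3% to 21.3% of the bar in libraries with TNF and 47.9% to 52.8% in libraries without.

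Ratios within pairs moved likewise on the same scale. NFKB2 over NFKB1 was 2.77 to 3.19 in libraries with TNF, against 1.02 to 1.26 without. RELB over RELA was 1.31 to 1.49 with TNF, against 0.202 to 0.315 without. The sum of NFKBIA and NFKBIE over that of the 5 subunits was 0.739 to 0.862 with TNF, against 0.260 to 0.361 without. The ratio of NFKBIA to NFKBIE overlapped, at 1.97 to 2.65 with TNF and 1.70 to 2.82 without. These are shares and ratios of RNA and say nothing of protein.

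In the model of all 6 groups, the same 7 genes were called higher with TNF inside either compound, and none of the 10 was called lower. Over all genes, 8.76% were called higher and 9.36% lower within ferrostatin-1, and 7.57% higher and 7.03% lower within liproxstatin-1. The median log2 fold change of the 10 genes was 1.78 and 1.68 in these comparisons, against 0.02 and 0.06 over all genes tested. TNFAIP3 was at 113, 114 and 122 CPM in TNF with ferrostatin-1, against 4.88 CPM in each of the 2 libraries of ferrostatin-1 alone. Its log2 fold change was 4.58 ± 0.15 (SE; edgeR adjusted p = 2.11e-08). In TNF with liproxstatin-1 it was at 106 and 116 CPM, against 7.12 and 5.51 CPM in liproxstatin-1 alone, a log2 fold change of 4.14 ± 0.15 (SE; edgeR adjusted p = 6.81e-08).

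The other inhibitors rose too. NFKBIA was at 168, 169 and 169 CPM in TNF with ferrostatin-1, against 26.8 and 31.6 CPM in ferrostatin-1 alone (log2 fold change 2.53 ± 0.12, SE). NFKBIE was at 77.5, 73.6 and 69.2 CPM in TNF with ferrostatin-1, against 17.1 and 12.2 CPM in ferrostatin-1 alone (log2 fold change 2.32 ± 0.17, SE). TNIP1 was at 469, 431 and 435 CPM in TNF with ferrostatin-1, against 148 and 149.8 CPM in ferrostatin-1 alone (log2 fold change 1.58 ± 0.10, SE). Within liproxstatin-1 the log2 fold changes of these genes were 2.28 for NFKBIA, 2.42 for NFKBIE and 1.43 for TNIP1, and no library of one group reached the other.

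Among the subunits, NFKB2 was at 204, 194 and 202 CPM in TNF with ferrostatin-1, against 49.1 and 49.8 CPM in ferrostatin-1 alone. RELB was at 108, 103 and 106 CPM in TNF with ferrostatin-1, against 25.8 and 28.0 CPM in ferrostatin-1 alone. Their log2 fold changes were 2.02 and 1.97 within ferrostatin-1, and 2.00 and 1.94 within liproxstatin-1. NFKB1 moved least of the 7, by 0.68 ± 0.09 (SE) within ferrostatin-1 (edgeR adjusted p = 3.41e-04). Within liproxstatin-1 NFKB1 rose by 0.53 ± 0.10 (SE; edgeR adjusted p = 0.00354).

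REL, RELA and BCL3 were apart from the 7 here too. REL was at 26.9, 27.9 and 21.8 CPM in TNF with ferrostatin-1, against 18.3 and 15.7 CPM in ferrostatin-1 alone. In TNF with liproxstatin-1 it was at 28.2 and 30.3 CPM, against 20.1 and 15.8 CPM in liproxstatin-1 alone. All libraries with TNF and a compound were thus above those with the compound alone. The log2 fold changes of 0.59 and 0.70 were not called with all libraries in the model (edgeR adjusted p = 0.486 and 0.453). The TNF libraries take no part in these contrasts but add to the shared estimate of spread. With either left out, the fold changes stayed at 0.59 and 0.70, and both were called. Those calls came with a change in the shared spread, not in the fold changes. Over all genes, leaving out any 1 library gave 1877 to 6276 calls within ferrostatin-1, against 4019 with all libraries. Within liproxstatin-1 it gave 1328 to 5473 calls, against 3240.

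RELA was at 139, 133 and 142 CPM in TNF with ferrostatin-1, against 160.5 and 167 CPM in ferrostatin-1 alone (log2 fold change -0.25, 95% interval -0.56 to 0.07). In TNF with liproxstatin-1 it was at 115 and 137 CPM, against 175 and 152 CPM in liproxstatin-1 alone (log2 fold change -0.38, 95% interval -0.72 to -0.03). BCL3 was at 31.5, 30.4 and 33.9 CPM in TNF with ferrostatin-1, against 51.3 and 50.4 CPM in ferrostatin-1 alone (log2 fold change -0.67, 95% interval -1.24 to -0.10). In TNF with liproxstatin-1 it was at 32.8 and 40.7 CPM, against 57.3 and 44.7 CPM in liproxstatin-1 alone (log2 fold change -0.47, 95% interval -1.11 to 0.16). These were not called (edgeR adjusted p = 0.29, 0.149, 0.102 and 0.332), although no library of one group reached the other. Over all genes tested, such separation was met in 54.7% within ferrostatin-1 and 62.5% within liproxstatin-1. The BCL3 difference within ferrostatin-1 was called without control library 2 (edgeR adjusted p = 0.0114) and without control library 3 (edgeR adjusted p = 0.0483), through the shared spread. Over all genes, leaving out any 1 library gave 1877 to 6276 calls within ferrostatin-1, against 4019 with all libraries. With only the compared groups in the model, RELA was called lower within both compounds (edgeR adjusted p = 0.0133 and 0.0406). BCL3 was likewise called lower within ferrostatin-1 (edgeR adjusted p = 2.77e-04). Those models called 34.3% of all genes within ferrostatin-1 and 30.5% within liproxstatin-1.

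Whether a compound changed the response to TNF was tested as an interaction. None of the 10 genes was called for either compound, against 0.00451% of all genes for ferrostatin-1 and 0% for liproxstatin-1 (edgeR). At an unadjusted p below 0.05 there were 7 genes for ferrostatin-1 and 8 for liproxstatin-1, where 19.1% and 19.5% of all genes passed. For NFKB1 the liproxstatin-1 interaction was -0.49 ± 0.13 (SE; edgeR adjusted p = 0.132). DESeq2 called it (adjusted p = 0.00713), as it did 5.87% of all genes. The interactions share the TNF and control libraries with the TNF comparison above. Without TNF library 3 they were called in 6 genes for ferrostatin-1 and 8 for liproxstatin-1, where 26.0% of all genes were called for each. They were called in none without TNF library 1, where 0.918% and 1.01% of all genes were.

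With TNF present, adding a compound left none of the 10 genes called against TNF alone. Over all genes, 5.52% were called with ferrostatin-1 and 0.343% with liproxstatin-1 (edgeR). At an unadjusted p below 0.05 there were 4 of 10 with ferrostatin-1 and 7 of 10 with liproxstatin-1, REL higher and the others lower, where 28.2% and 23.1% of all genes passed. DESeq2 called NFKB1 lower in each comparison (adjusted p = 0.0264 with ferrostatin-1 and 0.0484 with liproxstatin-1). It called 17.7% and 11.1% of all genes in these comparisons. Both comparisons use the same 2 TNF libraries.

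**Figure D4:**
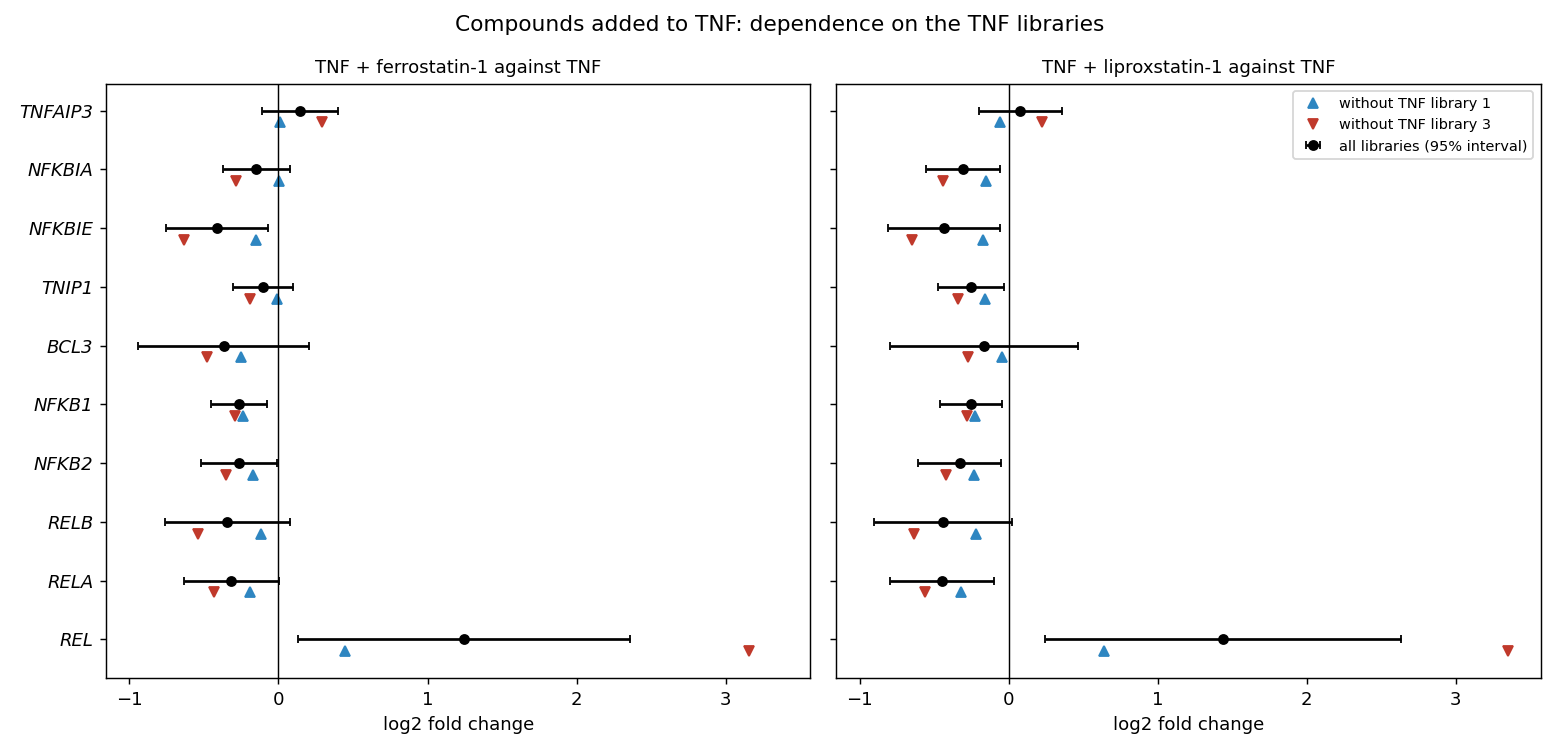
Log2 fold change of each of the 10 genes when ferrostatin-1 or liproxstatin-1 was added to TNF, against TNF alone. Black points with bars are edgeR's fit of all libraries with 95% intervals, and triangles are the fits without TNF library 1 or library 3. REL lies at 1.24 and 1.44 with the widest intervals, and at 3.16 and 3.35 without TNF library 3.

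TNFAIP3, the strongest responder, was at 113, 114 and 122 CPM with ferrostatin-1 added and 106 and 116 CPM with liproxstatin-1 added, against 95.3 and 115 CPM with TNF alone. The groups overlapped, and the log2 fold changes were 0.15 (95% interval -0.11 to 0.40) and 0.08 (-0.20 to 0.36). NFKB1 was at 94.0, 89.5 and 90.6 CPM with ferrostatin-1 added and 90.8 and 93.2 CPM with liproxstatin-1 added, against 112 and 108 CPM with TNF alone. All libraries with a compound were lower, by -0.26 (95% interval -0.45 to -0.08) and -0.25 (-0.46 to -0.05) on the log2 scale. The edgeR adjusted p was 0.0813 with ferrostatin-1 and 0.149 with liproxstatin-1.

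NFKB2 was at 180.3 and 202 CPM with liproxstatin-1 added, against 256 and 225 CPM with TNF alone, a log2 fold change of -0.33 (95% interval -0.61 to -0.05). NFKBIE differed by -0.43 (95% interval -0.81 to -0.05) with liproxstatin-1 added and by -0.41 (-0.75 to -0.07) with ferrostatin-1 added. NFKBIA was at 155 and 148 CPM with liproxstatin-1 added, against 206 and 168 CPM with TNF alone (log2 fold change -0.31). For NFKB2, NFKBIE and NFKBIA, TNF library 1 was the higher of the pair and TNF library 3 the nearer to the libraries with a compound. In 7 genes with ferrostatin-1 and 8 with liproxstatin-1 the groups did not overlap, against 43.4% and 50.4% of all genes tested. Without TNF library 3, 4 genes were called with ferrostatin-1 and 8 with liproxstatin-1, where 31.2% and 28.7% of all genes were called. Without TNF library 1 none was called with either, where 2.49% and 1.51% of all genes were. The NFKB1 fold hardly moved, at -0.29 and -0.28 on the log2 scale without TNF library 3 and -0.24 and -0.23 without TNF library 1. That of REL was 3.16 and 3.35 without TNF library 3, and 0.45 and 0.64 without TNF library 1.

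Side by side at 20 uM, ferrostatin-1 and liproxstatin-1 were compared in 3 ways, and none of the 10 genes was called in any (edgeR, adjusted over all genes; 30 tests of these genes). Under TNF, liproxstatin-1 against ferrostatin-1 gave log2 fold changes from -0.16 in NFKBIA to 0.20 in BCL3, and no gene had an unadjusted p below 0.05, which 8.6% of all genes had. Of all genes, 0.766% were called. The 95% interval was -0.32 to 0.19 for TNFAIP3, -0.18 to 0.20 for NFKB1 and -0.32 to 0.19 for NFKB2. That of REL was much wider, -0.87 to 1.26.

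Without TNF, the same contrast gave TNFAIP3 at 7.12 and 5.51 CPM in liproxstatin-1, against 4.88 CPM in each ferrostatin-1 library. The log2 fold change was 0.37 (95% interval 0.08 to 0.67, edgeR adjusted p = 0.586), and this was the 1 gene of 10 with an unadjusted p below 0.05. Of all genes, 0.104% were called and 6.51% had such a p. The difference of the TNF response between the compounds was -0.44 for TNFAIP3 (95% interval -0.83 to -0.05, edgeR adjusted p = 1), again the 1 gene with an unadjusted p below 0.05, where 0% of all genes were called and 3.96% had such a p.

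Alone, neither compound gave a call among the 10 genes, where 0.564% of all genes were called with ferrostatin-1 and 0.0586% with liproxstatin-1 (edgeR). BCL3 was at 51.3 and 50.4 CPM in ferrostatin-1 and 57.3 and 44.7 CPM in liproxstatin-1, against 34.1, 19.2 and 45.6 CPM in control. The log2 fold changes were 0.63 in each (edgeR adjusted p = 0.355 and 0.375), and control library 2 was the lowest of all 14. RELB was at 25.8 and 28.0 CPM in ferrostatin-1, against 22.8, 13.5 and 23.0 CPM in control (log2 fold change 0.45, edgeR adjusted p = 0.374). NFKB1 was at 65.6 and 61.8 CPM in liproxstatin-1, against 57.0, 49.9 and 55.4 CPM in control (log2 fold change 0.24, edgeR adjusted p = 0.308). These 3 genes made up the 2 with an unadjusted p below 0.05 in each comparison, BCL3 in both, where 12.3% of all genes passed with ferrostatin-1 and 12% with liproxstatin-1. With limma's voom and quality weights BCL3 was called in each (adjusted p = 0.0487 with ferrostatin-1 and 0.045 with liproxstatin-1). Voom called 7.23% and 6.6% of all genes there. DESeq2 called none of the 10, and 3.59% and 2.31% of all genes.

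Around the 10 genes, the pathway was described by 3 lists. Of 26 genes from receptor to kinase, 7 were called higher and 1 lower with TNF against control (edgeR), with a median log2 fold change of 0.00. Of all genes tested, 8.24% were called higher and 6.44% lower. BIRC3, a ubiquitin ligase recruited to the TNF receptor, rose by 3.39 ± 0.48 (SE), at 43.1 and 243 CPM in TNF libraries, against 13.4, 11.4 and 16.3 CPM in control libraries. TNF library 1 was far below library 3 for BIRC3, as it was for REL. TNFRSF1B, the second TNF receptor, rose by 2.24 ± 0.34 (SE), at 8.93 and 9.01 CPM in TNF libraries, against 1.21, 2.92 and 1.57 CPM in control libraries. RNF31, the catalytic part of the linear ubiquitin ligase, rose by 1.12 ± 0.31 (SE). The gene called lower was TAB3, at -0.69 ± 0.21 (SE), named after its value was seen, as are the other genes of the lists below the largest 3. Leaving out a TNF library was tried for the lists after the data were seen. The median log2 fold change of this list was then 0.02 without library 1 and 0.17 without library 3. Its numbers of calls were not stable: both the higher and the lower count changed in each refit. The shares of all genes called, given above for these refits, changed as well. BIRC3 was called either way, at 4.15 without TNF library 1 and 1.65 without TNF library 3 on the log2 scale. TNFRSF1B was at 2.24 and 2.23 and called in each. RNF31 was called without TNF library 3 (1.35) and not without TNF library 1 (0.86), and TAB3 likewise (-1.18 and -0.32).

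Of this list, TNF called 7 higher and 3 lower within ferrostatin-1, where 8.76% of all genes were higher and 9.36% lower. It called 5 higher and 3 lower within liproxstatin-1, where 7.57% of all genes were higher and 7.03% lower. The 3 lower genes were the same inside each compound. The main TNF receptor gene TNFRSF1A fell by 0.65 within ferrostatin-1 and by 0.97 within liproxstatin-1, the lymphotoxin receptor gene LTBR by 0.46 and 0.51, and RBCK1, a partner of RNF31, by 0.62 and 0.74, all on the log2 scale. The adaptor genes TRAF1, TRAF2 and TRAF3 were among those called higher in both, at 1.24, 0.74 and 0.79 within ferrostatin-1.

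Of 19 tested genes for other inhibitors and deubiquitinases, 4 were called higher and none lower with TNF, with a median of 0.08 on the log2 scale. Among all genes tested 8.24% were higher and 6.44% lower. CYLD, a deubiquitinase that opposes the pathway, rose by 0.64 ± 0.19 (SE), at 21.7 and 39.6 CPM in TNF libraries, against 18.0, 19.4 and 21.6 CPM in control libraries. ZC3H12A, an RNase that degrades inflammatory mRNAs, rose by 0.52 ± 0.13 (SE), and NFKBIB, the third classical inhibitor, rose by 0.47 ± 0.10 (SE). NFKBIB thus moved far less than NFKBIA and NFKBIE did. The fourth was N4BP1, at 0.38 ± 0.10 (SE). The median of the list was 0.07 without TNF library 1 and 0.18 without TNF library 3, on the log2 scale. Its calls were not stable either: fewer genes were called higher in each refit, and some were called lower without TNF library 3. CYLD was called without TNF library 1 (1.01) and not without TNF library 3 (0.14), as was N4BP1 (0.46 and 0.28). ZC3H12A was called without TNF library 3 (0.72) and not without TNF library 1 (0.30), and NFKBIB in each (0.62 and 0.30). Within ferrostatin-1 the list had 2 higher and 6 lower, and within liproxstatin-1 it had 1 higher and 4 lower, beside the same shares of all genes as above. CYLD was higher in both, at 1.12 and 0.96. TNIP2, a relative of TNIP1, was lower in both, at -0.60 ± 0.11 (SE) within ferrostatin-1 and -0.50 ± 0.13 (SE) within liproxstatin-1, as were NKIRAS2, OTUD7B and RNF11.

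Of 23 tested canonical NF-kB targets, 17 were called higher and none lower with TNF, against 8.24% and 6.44% of all genes. Their median log2 fold change was 1.72. LTB, a TNF family ligand, rose by 5.83 ± 0.32 (SE), at 64.0 and 45.7 CPM in TNF libraries, against 0.95, 1.01 and 0.934 CPM in control libraries. The TNF gene itself rose by 4.84 ± 0.32 (SE), at 14.2 and 13.0 CPM in TNF libraries, against 0.661, 0.531 and 0.226 CPM in control libraries. IL32, a cytokine gene, rose by 4.54 ± 0.18 (SE). Without TNF library 1 or library 3 the list had 16 higher and none lower, with LTB, TNF and IL32 at 4.27 to 6.05. The list had 14 higher and 1 lower within ferrostatin-1, and 11 higher and none lower within liproxstatin-1. The shares of all genes there were those given for the first list. Adding ferrostatin-1 to TNF called 1 target higher and 4 lower, against 1.77% and 3.75% of all genes, with SOD2, a mitochondrial superoxide dismutase, higher by 0.51 ± 0.08 (SE) and PLAU, IL1B, IER3 and TNFAIP2 lower. It also called TRAF6 higher (0.85) and NFKBIL1 lower (-0.67) in the other lists. Of these 7 genes, SOD2 and TNFAIP2 were still called without TNF library 1, and all 7 without TNF library 3. Adding liproxstatin-1 called none of the 3 lists' genes with all libraries or without TNF library 1, and without TNF library 3 it called 18, 12 and 9 of them in the 3 lists in the order above, where 28.7% of all genes were called. Under TNF, SOD2 was lower in liproxstatin-1 than in ferrostatin-1, a log2 fold change of -0.58 ± 0.08 (SE; edgeR adjusted p = 0.00622).

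The genes whose 6 group means were most like each of the 7 were described by the root mean square distance of centred log2 CPM, among 14882 genes, with the 10 themselves left out of the candidates. CXCL8, a neutrophil chemokine, was closest to TNFAIP3 at 0.175, followed by TRIM22 at 0.315 and the complement gene C3 at 0.317. Outside the 10, RGCC was closest to both NFKBIA at 0.0825 and NFKBIE at 0.13. NFKBIA was next followed by WNT10B at 0.157 and the chemokine CX3CL1 at 0.16. NFKBIE was next followed by the complement protease gene C1S at 0.154 and AL645939 at 0.167. Outside the 10, NFKB2 was closest to IKBKE, a kinase related to the inhibitor kinases, at 0.122, then SDR16C5 at 0.135 and XXYLT1-AS2 at 0.138.

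Outside the 10, RELB was closest to AL645939 at 0.0745, and C1S was at 0.177 from it. TNIP1 was closest to BTN3A2 at 0.0774, KLK10 at 0.0812 and EMP3 at 0.0818. NFKB1 had RNASEK at 0.0346, DEGS1 at 0.0421 and SERPINA5 at 0.0562, but 1270 genes lay within 0.25 of it, against 1 for TNFAIP3 and 17 to 98 for the other 5. Among the 10 genes, NFKBIA and NFKBIE were the closest pair at 0.103, followed by NFKB2 and RELB at 0.111, so that these partners lay nearer than several of the genes named. TNFAIP3 was at least 0.886 from every other gene of the 10.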

How the data were processed

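Per the labels' protocols, libraries were stranded (dUTP), from poly(A) RNA, and read as paired ends of 150 bases. HISAT2 2.0.4, cutadapt 1.9 and StringTie 1.3.4d are named in the submitters' processing notes. The sources used here do not give how reads were counted (build, annotation, strand). Overlapping and antisense genes are therefore uncertain. The deposited table holds whole-number counts for 36555 gene IDs, and its 14 other per-library columns were not used. CPM are counts scaled by TMM library sizes, and CPM per kb divide these by the GENCODE v29 exon length.

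Counts were fitted with edgeR 4.0.16 (R 4.3.3) in 1 quasi-likelihood model of 6 groups and 14 libraries, after filterByExpr with a count minimum of 10. p-values were adjusted (Benjamini-Hochberg) over 22179 genes in each of 12 comparisons, with a threshold of 0.05. Alternatives used DESeq2 1.42.0, limma 3.58.1 (voom), other scaling and filters, smaller models, a replicate block and each library left out. Both groups of a compound alone, and TNF alone, have columns numbered 1 and 3 but titles 1 and 2, so these 6 columns were matched by group only. The design text gives 3 replicates a group, and 4 groups hold 2 here. The 10 genes and the lists were chosen with earlier results of these data known. From each list the text names up to 3 genes called with TNF against control, by size of log2 fold change, with a mean count of at least 50. Promoters, 300 bases long, are from RefSeq. One gene among those most like RELB is not reported here.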

Additional observations from a re-analysis of the deposited data

How the results depend on the processing

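The 7 calls with TNF against control, within ferrostatin-1 and within liproxstatin-1 (21 in all) were kept under all 21 alternatives run, 14 of which left out a library. With only the compared groups in the model, 10 genes were called within ferrostatin-1 and 9 within liproxstatin-1 (34.3% and 30.5% of all genes). REL was added as higher and RELA as lower in both, and BCL3 as lower within ferrostatin-1. With voom there were 9 in each (32.6% and 30.9% of all genes). REL was added as higher in both, BCL3 as lower within ferrostatin-1 and RELA as lower within liproxstatin-1. Replicate numbers did not pair the libraries (4 of 14 correlated best with their own number), and the replicate block gave 7, 7 and 7 calls and 0 elsewhere. DESeq2 called 1 gene with ferrostatin-1 added to TNF, 1 with liproxstatin-1 added and 1 for the liproxstatin-1 interaction. Of all genes it called 17.7%, 11.1% and 5.87% there. Voom called 1 gene with each compound alone, where it called 7.23% of all genes with ferrostatin-1 and 6.6% with liproxstatin-1. The edgeR count was 0 in each of these comparisons. Leaving out a library gave 0 to 4 and 0 to 8 calls with ferrostatin-1 and liproxstatin-1 added to TNF, and 0 to 6 and 0 to 8 for their interactions, all above 0 without TNF library 3, where 31.2%, 28.7%, 26.0% and 26.0% of all genes were called. NFKBIA with ferrostatin-1 added was -0.15 with all libraries, 0.0041 without TNF library 1 and -0.29 without TNF library 3. The cause was not tested. Leaving 1 TNF library assumes that it varies like the other groups.

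Calls over all genes moved more. TNF against control called 3255 genes, 397 to 4899 under other fits and 1766 to 7380 with a library left out. TNF called 4019 within ferrostatin-1 (2916 to 7240, and 1877 to 6276 with a library left out) and 3240 within liproxstatin-1 (1781 to 6848, and 1328 to 5473). Added to TNF, ferrostatin-1 called 1224 (11 to 3933, and 69 to 7373) and liproxstatin-1 76 (0 to 2458, and 4 to 6797). Alone, they called 125 (13 to 1604, and 13 to 801) and 13 (3 to 1463, and 1 to 164). Liproxstatin-1 against ferrostatin-1 called 23 without TNF (10 to 302, and 3 to 126) and 170 with it (67 to 813, and 26 to 408). The interactions called 1 for ferrostatin-1 (0 to 1331, and 0 to 6147) and 0 for liproxstatin-1 (0 to 1303, and 0 to 6147), and the difference between compounds 0 (0 to 19, and 0 to 3).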
